A study of Mus musculus with 12 samples.

Results

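The genes described here carry out DNA replication, from the marking of origins to the synthesis of nucleotides and of new chromatin. They are the 48 members of a list of replication fork, origin and nucleotide synthesis genes, and all 48 were among the 19935 genes measured in the series. The list was drawn up by function, with earlier results of these data known, and leaves out the MCM helicase genes. The members were followed in the anterior prostate, a lobe of the mouse prostate that lies along the seminal vesicle, of APT121 and wild type males. The APT121 transgene drives T121, a truncated SV40 large T antigen known to inactivate pRb and its relatives, from a probasin promoter. That promoter is active in prostate epithelium and not meant to be active in stroma. Labels call the APT121 tissue a lesion of prostatic intraepithelial neoplasia (PIN) and the wild type tissue normal. All were F3 males of mixed C57BL/6J and DBA/2 descent, killed at 12 weeks, and the AIN93G diet had begun at 3 weeks. Each array measured RNA pooled from 2 mice, which gave 4 APT121 and 8 wild type arrays (24 mice). A replicate is therefore a pool, and mice within a pool cannot be seen apart.

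Replication starts from origins that the origin recognition complex (ORC) marks and that Cdc6 and Cdt1 license by loading the MCM helicase. Cdc7 kinase, Cdc45 and the GINS complex then switch the helicase on, after which polymerase alpha-primase lays primers that polymerases epsilon and delta extend on the PCNA clamp. Many of these genes are transcribed as cells enter S phase under the control of E2F factors, which the pRb family holds back in resting cells. In the adult prostate most epithelial cells are not cycling.

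Of the 48 members, 45 were higher in APT121 and 0 were lower at an adjusted p of 0.05 from limma (Benjamini-Hochberg over all genes), where 52.8% of all genes tested passed, 22.8% higher and 30.0% lower. Values are log2 intensities, and differences are APT121 minus wild type ± SE. Orc2 (0.14, adjusted p = 0.0842), Orc4 (0.09, adjusted p = 0.304) and the single-strand binding subunit gene Rpa3 (0.19, adjusted p = 0.0607) did not pass. The Rpa3 value is of a probe set whose number places it away from the gene, and the probe set numbered at the gene rose by 0.57 (adjusted p = 1.53e-05). The median difference of the members was 1.81, beside -0.09 for all genes tested. Among the members 39 rose at least 2-fold, which 5.73% of all genes did. For 44 members all 4 APT121 values lay above all 8 wild type values, as they did for 17.7% of all genes, and 34.6% of all genes had groups that did not overlap in either direction. The largest rise was that of Pole, the catalytic subunit of polymerase epsilon (16.4-fold). Because the samples are bulk tissue, more cells in S phase and more of these transcripts per cell cannot be told apart.

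**Figure D1:**
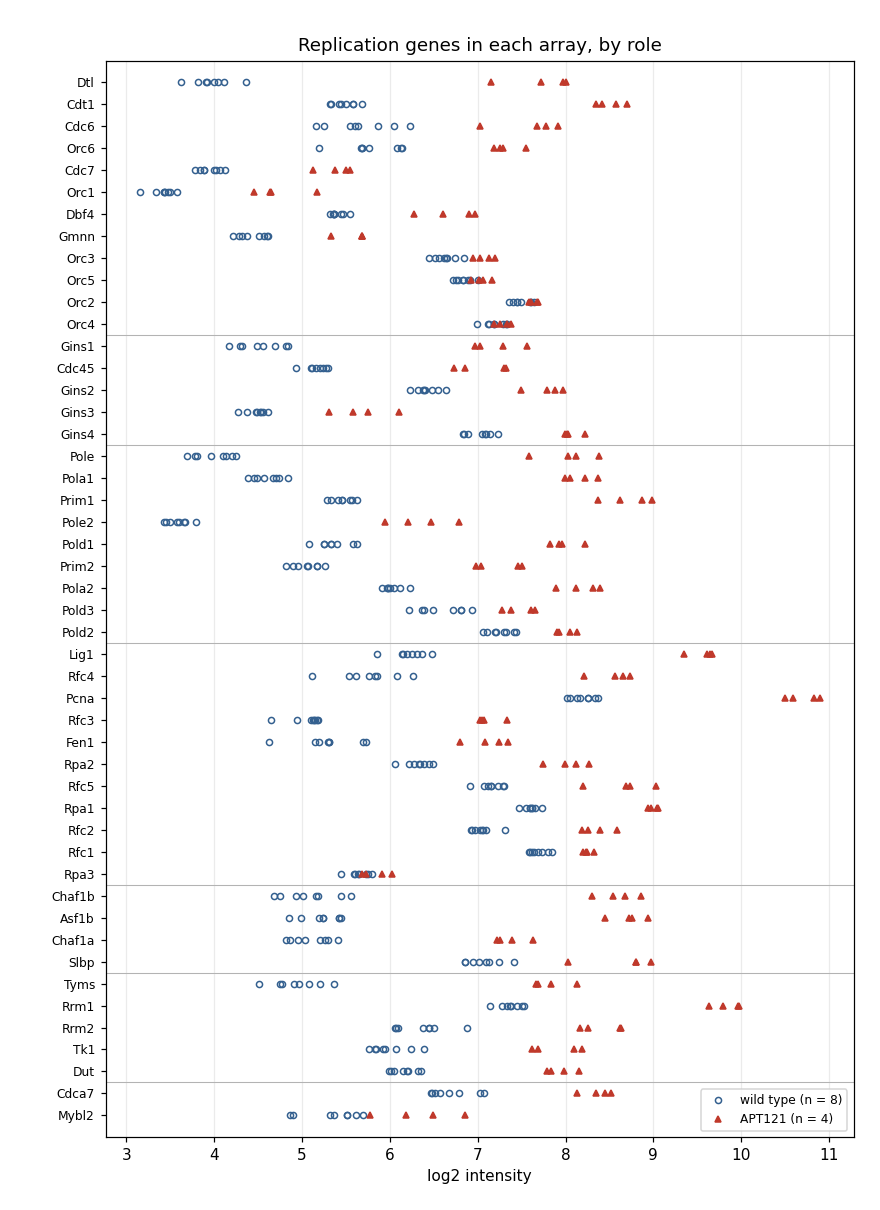
Log2 intensity (horizontal axis) of the 48 genes in each array, grouped by role and ordered within a role by the difference between genotypes. Triangles are the 4 APT121 arrays and open circles the 8 wild type arrays. The symbols of the groups lie apart in all rows but those of Orc2, Orc4, Orc5 and Rpa3.

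Other transcripts moved with genotype, given here as the sum of linear intensities over each marker list. Of all genes 52.8% passed the threshold, 22.8% higher and 30.0% lower. Calls among the lymphocyte and seminal vesicle markers were about as frequent as among all genes. Cycling cell markers (7 measured of 8, including Mki67) were higher for 7 of 7, with sums of 2241 to 3695 in APT121 and 254 to 358 in wild type. Of 9 luminal epithelial markers 7 rose and 1 fell, with sums of 19011 to 19987 against 10314 to 12097. Basal markers fell for 6 of 7 (431 to 638 against 869.5 to 1072), smooth muscle markers for 9 of 9 (6822 to 9149 against 11326 to 13119.6), fibroblast markers for 6 of 7 (1757 to 2973 against 3489 to 4103) and endothelial markers for 7 of 9 (436 to 462 against 601 to 720.4). Myeloid markers rose for 9 of 10 (1343 to 2472 against 739 to 906), and lymphocyte markers rose for 3 of 7 and fell for 1 (136 to 164 against 100.4 to 115). Seminal vesicle markers rose for 3 of 7, and in the sum 1 wild type array (replicate 6) reached the level of the APT121 arrays (1556 to 17965 against 94 to 15866). Gene by gene, that array was above every APT121 value for Svs1, Svs3a, Svs4 and Svs6, and within the APT121 range for Svs2, Svs5 and Pate4. Fat markers fell for 7 of 7 (236 to 412 against 318 to 1327). No marker was at 0 on any array, and the part of these lists in the rise of the replication genes was not tested. Without wild type replicates 5 and 7, which had the highest fat sums, and 6, with its seminal vesicle markers, 44 members rose and the median difference was 1.85.

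The start sites of the members were searched for words that E2F factors and other cell cycle regulators are known to bind, in RefSeq promoters of the GRCm38.p6 build that run from 250 bases before to 50 bases after a gene's start. Of the 48 members 41 matched the table by symbol, and Gins1, Gins2, Gins4, Gmnn, Rfc2, Pole and Prim2 are not shown. An 8-letter E2F word (TTTCCCGC, TTTCGCGC, TTTGCCGC or TTTGGCGC, on either strand) stood in the promoters of 13 of the 41 (31.7%), in those of 2.60% of the 27025 genes in the table and of 3.48% of its 15612 measured genes. The GC box GGGCGG stood in 32 of the 41 (78.0%), beside 38.2% of the table and 52.9% of measured genes. CCAAT stood in 21 (51.2%), beside 41.1% and 41.7%. The cell cycle homology region words TTTGAA or TTCGAA stood in 8 (19.5%), between 21.7% of the table and 19.0% of measured genes. A gene with several listed starts was counted as holding a word if any of them did. The stretches around each E2F word are printed so that the words can be compared, 5′ to 3′ on the strand on which the word reads, with the word in capitals and up to 11 bases on each side where the table reaches.
Orc1, chr4:108579416-108579445, minus strand: aggagaaaactTTTCGCGCcactaaccgaa
Orc3, chr4:34614965-34614994, minus strand: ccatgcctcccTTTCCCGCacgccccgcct
Cdc6, chr11:98908002-98908031, minus strand: accccaggcgaTTTCCCGCtctccaccggc
Cdt1, chr8:122568036-122568064, plus strand: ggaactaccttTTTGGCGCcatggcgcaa
Dtl, chr1:191575534-191575563, minus strand: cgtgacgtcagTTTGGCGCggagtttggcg
Gins3, chr8:95633507-95633536, minus strand: ttcaaactcgcTTTCCCGCgccgcactcgc
Pola1, chrX:93632275-93632304, plus strand: gcgggagtgcaTTTGGCGCcctgtgatgac
Pole2, chr12:69228162-69228191, plus strand: catgttcgcgaTTTGGCGCcaccgccgacg
Pold1, chr7:44548766-44548787, plus strand: gctTTTCCCGCcacaagatacg
Pold3, chr7:100121467-100121496, minus strand: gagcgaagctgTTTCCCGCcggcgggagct
Rfc3, chr5:151651200-151651229, minus strand: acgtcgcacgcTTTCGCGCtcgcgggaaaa
Rfc3, chr5:151651190-151651219, plus strand: gacagtagagtTTTCCCGCgagcgcgaaag
Lig1, chr7:13278841-13278870, minus strand: cgccacacagaTTTCGCGCgcactttggcg
Cdca7, chr2:72476137-72476166, minus strand: gggccaccggcTTTCCCGCgccgggacgca

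Relative to the listed start, with bases before it negative, these words lay between -134 (Cdc6 and Pola1) and 43 (Pold1). The words of Dtl (-4) and Rfc3 (-6 and 4) lay closest to it. Rfc3 held overlapping stretches of 2 words on opposite strands. The 13 genes with a word ranged in difference from 0.45 (Orc3) to 3.74 (Dtl), with a median of 2.06. The 28 members in the table without one ranged from 0.09 (Orc4) to 3.50 (Chaf1b), with a median of 1.74. A match is a description of letters and not a bound site, and no match says only that these words are absent from the window.

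The 250 bases before the first listed start are printed for the members with the largest and the smallest differences that the table holds, to set the promoters of genes that rose most beside those of genes that moved least. Capitals mark every E2F word, GC box, CCAAT and cell cycle homology word on either strand.
Dtl, chr1:191575545-191575794, minus strand: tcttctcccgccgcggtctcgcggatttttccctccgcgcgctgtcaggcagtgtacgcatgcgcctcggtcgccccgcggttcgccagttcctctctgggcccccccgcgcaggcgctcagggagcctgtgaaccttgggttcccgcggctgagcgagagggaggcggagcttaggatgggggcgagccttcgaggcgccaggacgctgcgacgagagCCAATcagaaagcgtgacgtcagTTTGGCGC
Pola1, chrX:93632156-93632405, minus strand: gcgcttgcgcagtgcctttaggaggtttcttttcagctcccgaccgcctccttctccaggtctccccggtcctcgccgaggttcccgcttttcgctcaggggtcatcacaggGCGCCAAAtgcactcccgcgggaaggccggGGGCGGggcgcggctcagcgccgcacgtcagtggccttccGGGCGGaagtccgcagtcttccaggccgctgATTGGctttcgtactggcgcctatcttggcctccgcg
Chaf1b, chr16:93883651-93883900, plus strand: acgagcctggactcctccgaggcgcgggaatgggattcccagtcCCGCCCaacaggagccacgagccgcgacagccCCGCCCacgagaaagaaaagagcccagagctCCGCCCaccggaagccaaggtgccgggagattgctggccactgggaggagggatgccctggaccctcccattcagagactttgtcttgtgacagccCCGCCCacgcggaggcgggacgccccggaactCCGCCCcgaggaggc
Asf1b, chr8:83955444-83955693, plus strand: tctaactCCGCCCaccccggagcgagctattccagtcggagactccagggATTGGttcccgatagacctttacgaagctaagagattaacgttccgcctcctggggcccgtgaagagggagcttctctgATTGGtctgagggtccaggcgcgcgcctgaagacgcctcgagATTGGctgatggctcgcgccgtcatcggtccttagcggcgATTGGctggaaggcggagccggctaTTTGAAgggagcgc
Orc4, chr2:48950082-48950331, minus strand: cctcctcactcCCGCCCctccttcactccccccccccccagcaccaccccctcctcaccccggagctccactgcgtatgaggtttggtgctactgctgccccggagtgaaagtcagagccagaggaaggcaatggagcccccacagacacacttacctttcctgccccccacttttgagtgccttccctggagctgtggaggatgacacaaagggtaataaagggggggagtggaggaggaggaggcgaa
Orc2, chr1:58505110-58505359, minus strand: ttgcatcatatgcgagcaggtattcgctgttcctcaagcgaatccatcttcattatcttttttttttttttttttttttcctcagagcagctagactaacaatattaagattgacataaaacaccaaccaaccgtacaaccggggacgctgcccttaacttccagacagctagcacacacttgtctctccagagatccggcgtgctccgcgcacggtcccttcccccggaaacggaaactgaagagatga
Rpa3, chr6:8259142-8259391, minus strand: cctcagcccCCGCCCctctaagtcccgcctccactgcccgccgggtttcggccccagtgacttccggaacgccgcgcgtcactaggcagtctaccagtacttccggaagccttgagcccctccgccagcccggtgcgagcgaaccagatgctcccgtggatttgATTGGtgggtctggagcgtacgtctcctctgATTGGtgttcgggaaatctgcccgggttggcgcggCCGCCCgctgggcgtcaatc
Dtl and Pola1 each hold 1 E2F word and 1 CCAAT in this stretch, and Pola1 holds 2 GC boxes as well. Chaf1b has 5 GC boxes and none of the other words, while Asf1b has 4 CCAAT words, 1 GC box and 1 cell cycle homology word close to the start. Among the genes that moved least, Orc4 holds 1 GC box, Orc2 none of the words, and Rpa3 2 CCAAT words and 2 GC boxes. Rpa3 is in this set by the value of the probe set numbered away from the gene (0.19), and by the one numbered at the gene (0.57) Orc5 and Orc3 would have smaller differences. Orc4 has 3 listed starts and Orc2 has 2, of which 1 each is shown.

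Genes of origin licensing and firing rose for 10 of 12, with a median difference of 1.30 and a wide range. The largest rise among them was that of Dtl, the substrate receptor of the ubiquitin ligase that destroys Cdt1 during S phase. Dtl read 7.72, 8.01, 7.97 and 7.15 in APT121 replicates 1 to 4, and the 8 wild type arrays read 3.62 at the lowest, 3.96 at the median and 4.36 at the highest. Every APT121 pool was high and every wild type pool low, a 13.3-fold difference (3.74 ± 0.15, adjusted p = 8.12e-12).

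Cdt1, the loading factor that Dtl removes, had APT121 values of 8.58, 8.70, 8.42 and 8.35 against wild type values of 5.32 at the lowest, 5.47 at the median and 5.68 at the highest. The groups lay far apart, and Cdt1 rose 8.16-fold (3.03 ± 0.08, adjusted p = 1.92e-13). Geminin (Gmnn), which binds and inhibits Cdt1, read 5.68, 5.68, 5.68 and 5.33 in APT121, with replicate 4 the lowest, and 4.21 at the lowest, 4.44 at the median and 4.61 at the highest in wild type. It rose 2.24-fold (1.16 ± 0.09, adjusted p = 3.87e-08). Cdc6, the ATPase that recruits Cdt1 to origins, stood at 7.77, 7.68, 7.92 and 7.02 in APT121 and at 5.17 at the lowest, 5.62 at the median and 6.23 at the highest in wild type, the widest wild type spread of any member (SD 0.37). The groups still did not overlap (1.93 ± 0.19, adjusted p = 4.10e-07). The kinase gene Cdc7 rose by 1.44 ± 0.09 and Dbf4, its activating subunit, by 1.28 ± 0.10, with APT121 values of 5.13 to 5.54 and 6.27 to 6.97 above wild type maxima of 4.12 and 5.55.

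The subunits of ORC split. Orc1, the subunit that in mammals comes and goes with the cell cycle, had APT121 values of 4.64, 5.17, 4.65 and 4.46 and wild type values of 3.15 at the lowest, 3.43 at the median and 3.57 at the highest, and rose 2.48-fold (1.31 ± 0.11, adjusted p = 5.30e-08). Orc6, the smallest subunit, read 7.25, 7.55, 7.29 and 7.19 in APT121 and 5.19 at the lowest, 5.72 at the median and 6.14 at the highest in wild type (1.53 ± 0.15, adjusted p = 3.00e-07). For both genes the groups were apart. The differences of the other subunits were smaller. Orc3 gave 7.20, 7.12, 6.95 and 7.03 against 6.44 at the lowest, 6.63 at the median and 6.84 at the highest and rose 1.36-fold (0.45 ± 0.08, adjusted p = 1.65e-04), or by 0.28 after quantile normalisation. Orc5 read 7.02, 7.16, 7.07 and 6.93 in APT121 and 6.72 at the lowest, 6.84 at the median and 7.00 at the highest in wild type (0.20 ± 0.07, adjusted p = 0.0193). Its groups overlap, and its call was lost in 7 alternatives, among them median centring (adjusted p = 0.0707), quantile normalisation (0.037, adjusted p = 0.688), wild type replicates 1 to 4 alone (adjusted p = 0.0562) and the absence of APT121 replicate 2 (adjusted p = 0.0830). Orc2 stood at 7.59, 7.67, 7.69 and 7.61 in APT121, inside or just above the wild type values of 7.36 at the lowest, 7.47 at the median and 7.64 at the highest (0.14 ± 0.07, 95% interval 0.00 to 0.28). Orc4 read 7.38, 7.33, 7.25 and 7.18 against 7.00 at the lowest, 7.19 at the median and 7.34 at the highest, with 1 of the 4 APT121 pools above the wild type range (0.09 ± 0.07, 95% interval -0.06 to 0.25). Repeated quantile normalisation turned the sign of Orc2 (-0.022) and of Orc4 (-0.081), neither past the threshold.

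Cdc45 and the GINS complex, which join the MCM ring to make the active helicase, rose for 5 of 5 genes. Cdc45 read 6.86, 7.30, 7.32 and 6.73 in APT121 and 4.93 at the lowest, 5.18 at the median and 5.30 at the highest in wild type, with no overlap (3.69-fold, 1.88 ± 0.11, adjusted p = 5.03e-10). The 4 GINS subunits form 1 complex. Gins1 had APT121 values of 7.02, 7.56, 7.28 and 6.97 against 4.17 at the lowest, 4.52 at the median and 4.84 at the highest, a 6.44-fold rise (2.69 ± 0.14, adjusted p = 1.27e-10). Gins4, with the smallest rise of the complex, read 8.03, 8.22, 8.02 and 8.00 against 6.84 at the lowest, 7.06 at the median and 7.23 at the highest (2.07-fold, 1.05 ± 0.08, adjusted p = 2.68e-08). Between them lay Gins2 (1.36 ± 0.09) and Gins3 (1.21 ± 0.11), for which all APT121 pools were also above all wild type pools. Whether the subunits differ from each other in their rise was not tested.

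Replicative polymerase genes rose for 9 of 9, with a median difference of 2.63. Pole read 8.03, 8.39, 8.12 and 7.58 in APT121 replicates 1 to 4 and 3.70 at the lowest, 4.03 at the median and 4.25 at the highest in wild type. Its groups lay furthest apart of all members in the mean (16.4-fold, 4.04 ± 0.13, adjusted p = 1.23e-12). Pole2, an accessory subunit of the same enzyme, rose by 2.76 ± 0.12 to APT121 values between 5.94 and 6.79.

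Polymerase alpha-primase, which starts each new strand, rose in all 4 subunits. Pola1, its catalytic subunit, read 8.05, 8.38, 8.23 and 7.99 in APT121 and 4.39 at the lowest, 4.62 at the median and 4.84 at the highest in wild type (11.8-fold, 3.56 ± 0.09, adjusted p = 1.21e-13). Prim1, the primase that lays the RNA primer, had values of 8.63, 8.98, 8.87 and 8.37 against 5.29 at the lowest, 5.46 at the median and 5.62 at the highest (3.25 ± 0.10, adjusted p = 5.62e-13). In both cases the lowest APT121 pool was far above the highest wild type pool. The regulatory subunit Pola2 gave 8.12, 8.39, 8.31 and 7.89 against 5.91 at the lowest, 5.99 at the median and 6.23 at the highest (2.15 ± 0.09). Prim2, the large primase subunit, gave 7.03, 7.50, 7.46 and 6.98 against 4.82 at the lowest, 5.06 at the median and 5.26 at the highest (2.19 ± 0.11). Pola2 rose 4.44-fold and Prim2 4.57-fold.

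Polymerase delta is the lagging strand enzyme. Pold1, the catalytic subunit, read 7.96, 8.22, 7.83 and 7.93 in APT121 and 5.08 at the lowest, 5.33 at the median and 5.62 at the highest in wild type (6.18-fold, 2.63 ± 0.10, adjusted p = 4.97e-12). Pold2 gave 7.93, 8.13, 8.05 and 7.90 against 7.06 at the lowest, 7.25 at the median and 7.43 at the highest, the smallest rise among the polymerase members (1.68-fold, 0.75 ± 0.08, adjusted p = 1.00e-06). Pold3 stood at 7.38, 7.65, 7.61 and 7.28 against 6.21 at the lowest, 6.61 at the median and 6.93 at the highest (0.89 ± 0.13, adjusted p = 2.46e-05). In none of the 3 genes did the genotypes overlap. The wild type arrays of Pold3 fell into sets, with replicates 1 to 4 at 6.72 to 6.93 and replicates 5 to 8 at 6.21 to 6.49, and the difference was 0.66 against the first set and 1.11 against the second. These sets did not overlap in 6 of the 48 members (Pold3, Pcna, Rfc4, Slbp, Rrm2 and Cdca7), and in 10.5% of all genes. Nothing in the labels but the replicate number separates them, and all 6 genes rose against either set.

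**Figure D2:**
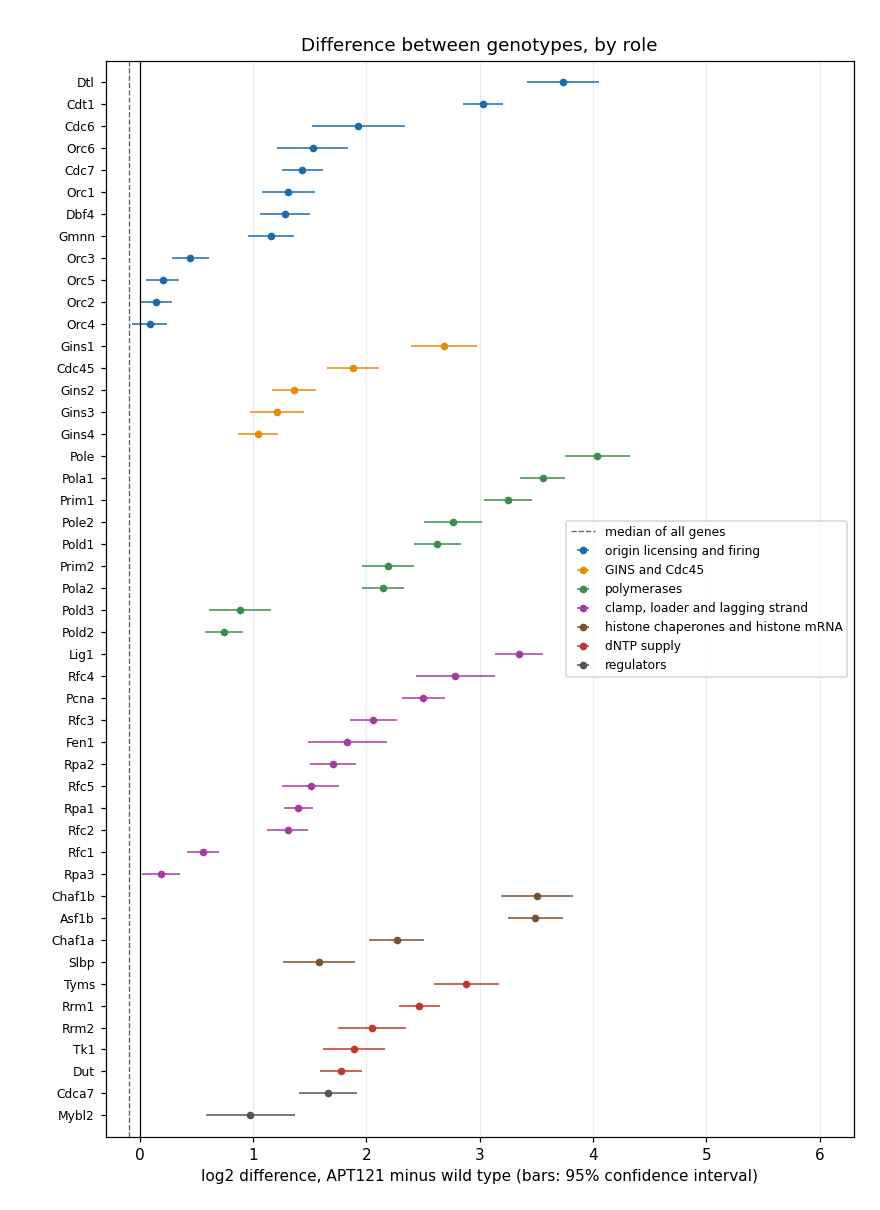
Difference between genotypes on the log2 scale (horizontal axis, APT121 minus wild type) for the 48 genes, coloured by role, with 95% confidence intervals of the limma fit over 4 APT121 and 8 wild type arrays. The dashed line is the median of all genes (-0.09). Pole (4.04) lies furthest to the right and Orc4 (0.09) furthest to the left.

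The clamp, its loader and the lagging strand genes rose for 10 of 11. Pcna, the ring that holds polymerases on DNA, read 10.58, 10.83, 10.89 and 10.50 in APT121 and 8.02 at the lowest, 8.21 at the median and 8.37 at the highest in wild type, a 5.67-fold rise (2.50 ± 0.09, adjusted p = 2.50e-12). Lig1, the ligase that seals Okazaki fragments, had the largest rise of this role, with 9.66, 9.64, 9.61 and 9.35 against 5.86 at the lowest, 6.22 at the median and 6.48 at the highest (10.2-fold, 3.35 ± 0.10, adjusted p = 3.50e-13). Both genes had narrow groups that lay well apart. Fen1, the flap nuclease that trims those fragments before ligation, rose by 1.83 ± 0.16, from a wild type mean of 5.29 ± 0.34 (SD, n = 8) to 7.12 ± 0.24 (SD, n = 4).

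The clamp loader has 1 large subunit, Rfc1, and 4 small ones that alternative loaders share. Rfc1 read 8.20, 8.33, 8.23 and 8.25 in APT121 and 7.58 at the lowest, 7.67 at the median and 7.85 at the highest in wild type, and rose 1.48-fold (0.56 ± 0.07, adjusted p = 2.71e-06). Of the small subunits, Rfc4 rose most, with 8.65, 8.74, 8.57 and 8.22 against 5.11 at the lowest, 5.80 at the median and 6.26 at the highest (6.90-fold, 2.79 ± 0.16, adjusted p = 7.60e-10). All 5 loader genes kept the groups apart. Rfc3 gave 7.02, 7.33, 7.07 and 7.05 against 4.64 at the lowest, 5.13 at the median and 5.18 at the highest (2.06 ± 0.10). Rfc5 gave 8.69, 8.73, 9.03 and 8.20 against 6.92 at the lowest, 7.15 at the median and 7.30 at the highest (1.51 ± 0.12). Rfc2 gave 8.25, 8.58, 8.40 and 8.19 against 6.93 at the lowest, 7.04 at the median and 7.31 at the highest (1.31 ± 0.09), so that each small subunit had a larger difference than Rfc1.

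Replication protein A coats single-stranded DNA as a complex of 3 subunits. Rpa1 rose by 1.40 ± 0.06 and Rpa2 by 1.71 ± 0.10, with APT121 ranges of 8.94 to 9.05 and 7.75 to 8.26 above all wild type values. Rpa3 read 5.73, 6.03, 5.91 and 5.69 in APT121, among or just above wild type values of 5.44 at the lowest, 5.65 at the median and 5.80 at the highest (0.19 ± 0.08, 95% interval 0.02 to 0.36 before adjustment, adjusted p = 0.0607). It passed without APT121 replicate 4 (adjusted p = 0.0343) and without wild type replicate 1 (adjusted p = 0.0411). Its call also depends on the probe set. The array has 2 transcript clusters (probe sets) for Rpa3, and the values above are of cluster 10353032, which had the higher mean. The other, 10543114, read 5.61, 6.09, 5.81 and 5.74 in APT121 and at most 5.33 in wild type, with no overlap and a difference of 0.57 (adjusted p = 1.53e-05, limma), and with it 46 members rose. Cluster numbers on this array follow the genome. Of the 20 single-gene clusters numbered nearest to 10353032, 0 belong to genes on the chromosome that carries Rpa3 in RefSeq, and of those nearest to 10543114, 19 do. Whether 10353032 reads Rpa3 itself was not tested.

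Histone chaperones and the histone mRNA factor rose for 4 of 4, with a median difference of 2.88. Chaf1b, a subunit of the chromatin assembly factor that PCNA recruits to new DNA, read 8.55, 8.86, 8.68 and 8.30 in APT121 and 4.69 at the lowest, 5.08 at the median and 5.56 at the highest in wild type (11.3-fold, 3.50 ± 0.15, adjusted p = 1.78e-11). Its partner Chaf1a rose by 2.27 ± 0.11. Asf1b, which hands histones to that factor, gave 8.73, 8.94, 8.75 and 8.45 against 4.86 at the lowest, 5.24 at the median and 5.45 at the highest (11.2-fold, 3.49 ± 0.12, adjusted p = 1.07e-12). The groups of all 3 were wide apart. Slbp, which binds the stem-loop of replication-dependent histone mRNAs, had the smallest rise of the role, with 8.80, 8.80, 8.97 and 8.03 against 6.85 at the lowest, 7.06 at the median and 7.42 at the highest (2.99-fold, 1.58 ± 0.15, adjusted p = 1.97e-07). Its replicate 4 was the low APT121 value, and was still above every wild type value.

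Genes that supply deoxynucleotides rose for 5 of 5. Tyms, thymidylate synthase, read 7.69, 8.13, 7.84 and 7.66 in APT121 and 4.51 at the lowest, 4.94 at the median and 5.37 at the highest in wild type (7.38-fold, 2.88 ± 0.14, adjusted p = 5.12e-11). Ribonucleotide reductase makes deoxynucleotides from 2 subunits. Its large subunit gene Rrm1 gave 9.79, 9.97, 9.98 and 9.63 against 7.15 at the lowest, 7.37 at the median and 7.53 at the highest (2.47 ± 0.08, adjusted p = 1.63e-12). The small subunit gene Rrm2 gave 8.26, 8.62, 8.63 and 8.16 against 6.06 at the lowest, 6.41 at the median and 6.88 at the highest (2.05 ± 0.14, adjusted p = 5.25e-09). Both were high in every APT121 pool. Dut, which destroys dUTP so that uracil stays out of DNA, had the smallest rise on the probe sets used, with 7.98, 8.15, 7.84 and 7.79 against 5.99 at the lowest, 6.17 at the median and 6.36 at the highest (3.43-fold, 1.78 ± 0.09, adjusted p = 8.06e-11).

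Tk1, the cytosolic thymidine kinase of S phase, read 7.69, 8.19, 8.10 and 7.61 in APT121 and 5.76 at the lowest, 5.93 at the median and 6.39 at the highest in wild type (3.72-fold, 1.90 ± 0.13, adjusted p = 4.30e-09). These are values of cluster 10582809, and of its 20 nearest-numbered single-gene clusters 0 belong to genes on the chromosome of Tk1. The other Tk1 cluster, 10393431, has all 20 on that chromosome. It read 6.61, 7.76, 7.11 and 6.22 in APT121, a wide spread with replicate 2 highest, against 4.96 to 5.74 in wild type. By this cluster Tk1 and not Dut would have the smallest rise of the role. The groups did not overlap there either (1.49, adjusted p = 3.26e-05, limma). For Pcna and Slbp, the other members with 2 clusters, the cluster used lies among genes of its own chromosome. The second cluster differed by 2.52 for Pcna and 1.84 for Slbp. Of the 20 single-gene clusters numbered nearest to each second cluster, 0 belong to genes on the chromosome of the member. Whether these second clusters read Pcna and Slbp themselves was not tested.

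The last members act on or with the replication programme rather than at the fork. Mybl2 encodes B-Myb, a transcription factor of the MuvB complex. It read 6.18, 6.49, 6.86 and 5.78 in APT121, the widest APT121 spread of any member (SD 0.46), and 4.86 at the lowest, 5.44 at the median and 5.69 at the highest in wild type. The lowest APT121 pool was just above the highest wild type pool (1.97-fold, 0.98 ± 0.18, adjusted p = 3.52e-04). Cdca7, a zinc finger protein that works with the remodeller Hells, gave 8.34, 8.52, 8.45 and 8.13 against 6.47 at the lowest, 6.63 at the median and 7.07 at the highest (3.16-fold, 1.66 ± 0.12, adjusted p = 9.16e-09), with clear separation.

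Whether related genes rose unequally was tested on log2 ratios within each array, 8 ratios in all, with a two-sided exact permutation test over the 12 arrays and Benjamini-Hochberg adjustment over the 8. The smallest p this design can give is 0.00404. The 8 ratios were chosen with earlier results of these data known, so their p-values describe the shifts and are not an independent test. Ratios of different probe sets have no meaning as levels, so that only their shift between genotypes is read. Ratios are given as mean ± SD over 8 wild type and 4 APT121 arrays. The largest shift was that of Asf1b over its paralogue Asf1a, from -1.29 ± 0.28 to 1.65 ± 0.10 (difference 2.94), while Asf1a itself rose by 0.55 ± 0.09. Rrm2 gained on Rrm2b, the p53-inducible small subunit of the same reductase, from -0.29 ± 0.33 to 1.92 ± 0.54 (difference 2.21). Rrm2b read 6.51, 6.45, 6.12 and 6.91 in APT121 and 6.43 at the lowest, 6.64 at the median and 6.83 at the highest in wild type. It did not pass (-0.16 ± 0.11, adjusted p = 0.262). It was lower past the threshold without APT121 replicate 4 (-0.29, adjusted p = 0.0245) and after quantile normalisation (-0.32, adjusted p = 0.0291, limma). Tk1 gained on Tk2, its mitochondrial counterpart, from -1.15 ± 0.25 to 1.02 ± 0.45 (difference 2.17, or 1.76 with the second Tk1 cluster). Tk2 fell by 0.27 (adjusted p = 0.00485, limma), or by 0.45 after quantile normalisation, with values of 6.96, 6.74, 6.75 and 7.08 against 7.08 at the lowest, 7.15 at the median and 7.27 at the highest. Cdt1 gained on its inhibitor Gmnn, from 1.05 ± 0.24 to 2.91 ± 0.13 (difference 1.87).

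The mean over the polymerase alpha-primase subunits gained on that over polymerase delta, from -1.11 ± 0.13 to 0.25 ± 0.12 (difference 1.37). This did not hold for every subunit, since Pold1 (2.63) rose more than Pola2 (2.15) and Prim2 (2.19). Pold2 (0.75) and Pold3 (0.89) rose less than any alpha-primase subunit. Rfc1 lost ground to the mean of Rfc2, Rfc3, Rfc4 and Rfc5, from 1.44 ± 0.17 to 0.08 ± 0.17 (difference -1.35). The wild type sets stood apart in this ratio too, with 1.43 to 1.68 in replicates 1 to 4 and 1.24 to 1.32 in replicates 5 to 8. Orc1 gained on the mean of Orc2 to Orc6, from -3.37 ± 0.20 to -2.55 ± 0.24 (difference 0.83). Within that mean Orc6 rose by more (1.53) than Orc1 did (1.31), while Orc2 to Orc5 differed by 0.09 to 0.45. These 7 ratios had groups that did not overlap, each with an exact p of 0.00404, the smallest possible, and an adjusted p of 0.00462. Rrm2 over Rrm1 was the exception, with ratios of -1.41 to -0.49 in wild type and -1.54 to -1.35 in APT121 that overlap (difference -0.42, exact p = 0.0283, adjusted p = 0.0283). That shift did not pass against wild type replicates 1 to 4 alone (-0.21, adjusted exact p = 0.200), without wild type replicates 5, 6 and 7 together (adjusted exact p = 0.111), or without APT121 replicate 1 or 4 (both adjusted exact p = 0.0848).

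**Figure D3:**
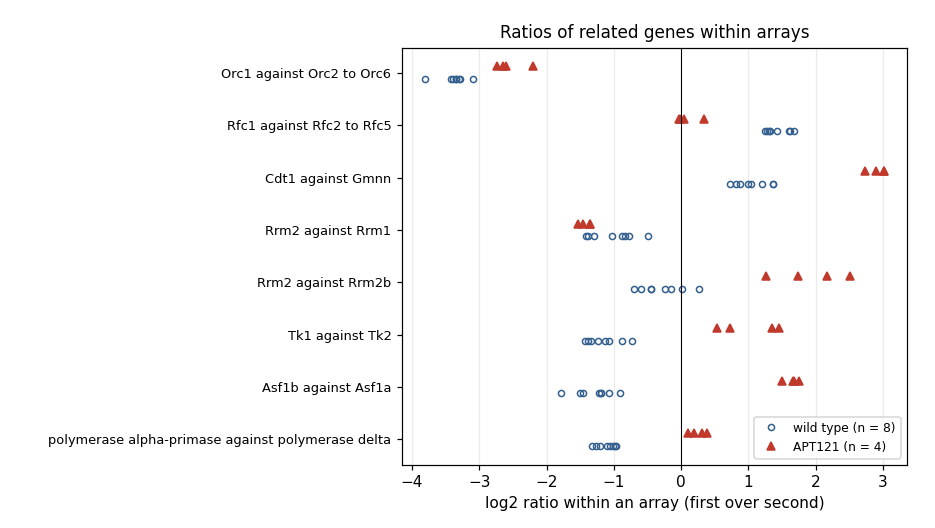
Log2 ratio of the first gene or gene group over the second within each array (horizontal axis), for the 8 pairs tested. Triangles are 4 APT121 arrays and open circles 8 wild type arrays, and the position of a pair on the axis has no meaning, only the shift between symbols. The symbols part in every pair but Rrm2 against Rrm1.

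The 4 APT121 pools were not alike in these genes. Replicate 2 held the highest APT121 value for 34 of the 48 members and replicate 4 the lowest for 41. How often replicates 2 and 4 were the highest or lowest among all genes was not counted. The median deviation of the members from their APT121 mean was -0.05, 0.21, 0.08 and -0.22 in replicates 1 to 4. That of all genes was within 0.01 of 0 in each, but the normalisation gives the arrays a common distribution and so holds it near 0 beforehand. The cycling cell markers deviated in the same order, by -0.15, 0.31, 0.25 and -0.38. Replicate 4 also had the lowest sums of basal, smooth muscle, fibroblast, endothelial, myeloid and fat markers, and the highest of luminal markers (19987, others 19011 to 19423). Sums of myeloid markers were 1910, 1772, 2472 and 1343, those of fibroblast markers 2401, 2520, 2973 and 1757 in replicates 1 to 4. Their part in the order of the pools was not tested. Replicate 3 was the highest pool for 10 members, among them Mybl2, Rfc5 and Slbp. Without replicate 4, 46 members rose (median difference 1.88), and without replicate 2, 44 did (1.73). Among the wild type pools replicate 7 was highest for 14 members, and the medians of the 48 genes ran from 5.57 to 5.98, against 7.61 to 8.13 in APT121.

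**Figure D4:**
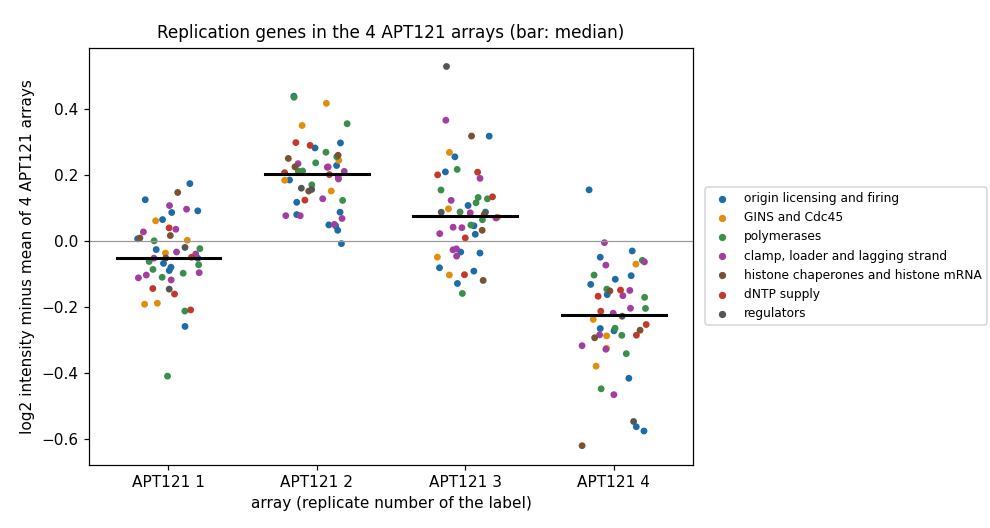
Deviation of each of the 48 genes from its mean over the 4 APT121 arrays (vertical axis, log2), by array, coloured by role, with the median as a bar. Most points of replicate 2 lie above 0 and most of replicate 4 below it, for all roles.

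Wild type levels were low for some members. The wild type mean of 19 of the 48 was under that of the median gene (5.38). A median splits all genes evenly, so the members were under it less often than genes in general. In APT121 the means of 2 members, Orc1 and Cdc7, were under that of the median gene there (5.44). The table holds no detection calls, and whether such low values exceed background was not tested, which limits how exactly their folds can be read. They include Pole, Dtl and Pola1, the genes with the largest folds.

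Other genes of replication were taken from a list of 52, of which 50 were measured. Of these 39 rose, 5 fell and 6 did not pass, with a median difference of 1.18. Among all genes 22.8% rose and 30.0% fell. Fork protection and origin activation genes rose for 10 of 10, led by Wdhd1, which ties polymerase alpha to the helicase (3.01 ± 0.06), and Ticrr, which brings Cdc45 to origins (2.86 ± 0.13). The count includes Recql4, named after its value was seen, which differed by 0.24 ± 0.08 (adjusted p = 0.0204) and lost its call with median centring, against wild type replicates 5 to 8 alone and without APT121 replicate 2 (adjusted p = 0.0527, 0.0524 and 0.0546). Alternative loaders and unloaders rose for 4 of 5, with Atad5, which takes PCNA off DNA, at 2.91 ± 0.08 and Chtf18 at 1.52 ± 0.10. Rad17, loader of the checkpoint clamp, differed by -0.15 ± 0.08 (adjusted p = 0.132) and fell past the threshold after quantile normalisation (-0.32).

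Of 5 further genes of the same polymerases, which are 3 subunit genes and 2 genes of polymerase delta interacting proteins, 3 rose and 1 fell. Pole4 (1.17 ± 0.08) and Pole3 (0.40 ± 0.09), histone-fold subunits of polymerase epsilon, rose. Pole3 did not pass after quantile normalisation (0.22, adjusted p = 0.0612). Pold4, the smallest subunit of polymerase delta, read 6.44, 6.79, 6.71 and 6.35 in APT121 and 7.08 at the lowest, 7.31 at the median and 7.58 at the highest in wild type, lower in every APT121 pool (-0.73 ± 0.10, adjusted p = 2.44e-05). The interacting protein gene Poldip3, named after its value was seen, rose by 0.23 ± 0.06 (adjusted p = 0.00729). Poldip2 (-0.13 ± 0.07, adjusted p = 0.119) did not pass, but was lower past the threshold without APT121 replicate 2 (-0.19, adjusted p = 0.0433) and under both renormalisations. Primer removal and strand repair genes rose for 6 of 7, led by the exonuclease gene Exo1 (2.78 ± 0.11) and Rnaseh2b (1.61 ± 0.12). The third RNase H2 subunit gene, Rnaseh2c, did not pass (0.11 ± 0.08, adjusted p = 0.259) and changed sign after quantile normalisation (-0.044).

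Of 12 enzymes of nucleotide supply outside the members, 6 were higher and 4 lower, where 22.8% of all genes rose and 30.0% fell. The share that fell was near that of all genes. Shmt1, which feeds thymidylate synthesis in the cytosol, rose by 1.85 ± 0.08, and the deoxycytidine kinase gene Dck by 1.82 ± 0.12. Shmt2, the mitochondrial form, differed by -0.22 ± 0.13 (adjusted p = 0.147) and like Rrm2b did not pass. Shmt2 was lower past the threshold against wild type replicates 5 to 8 alone (-0.37, adjusted p = 0.0144) and after quantile normalisation (-0.39, adjusted p = 0.0192, limma). The nucleoside diphosphate kinase genes Nme2 (-0.91 ± 0.08) and Nme1 (-0.58 ± 0.12), Cmpk1 (-0.46 ± 0.09) and Tk2 fell. Nme1 and Nme2 are neighbouring genes of similar sequence, and whether the probes of either read both was not tested. Chromatin genes of the fork rose for 10 of 11, with the remodeller gene Hells at 4.89 ± 0.12 and Uhrf1, which guides maintenance methylation, at 4.01 ± 0.15. Top1 did not pass (0.12 ± 0.05, adjusted p = 0.0721).

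**Figure D5:**
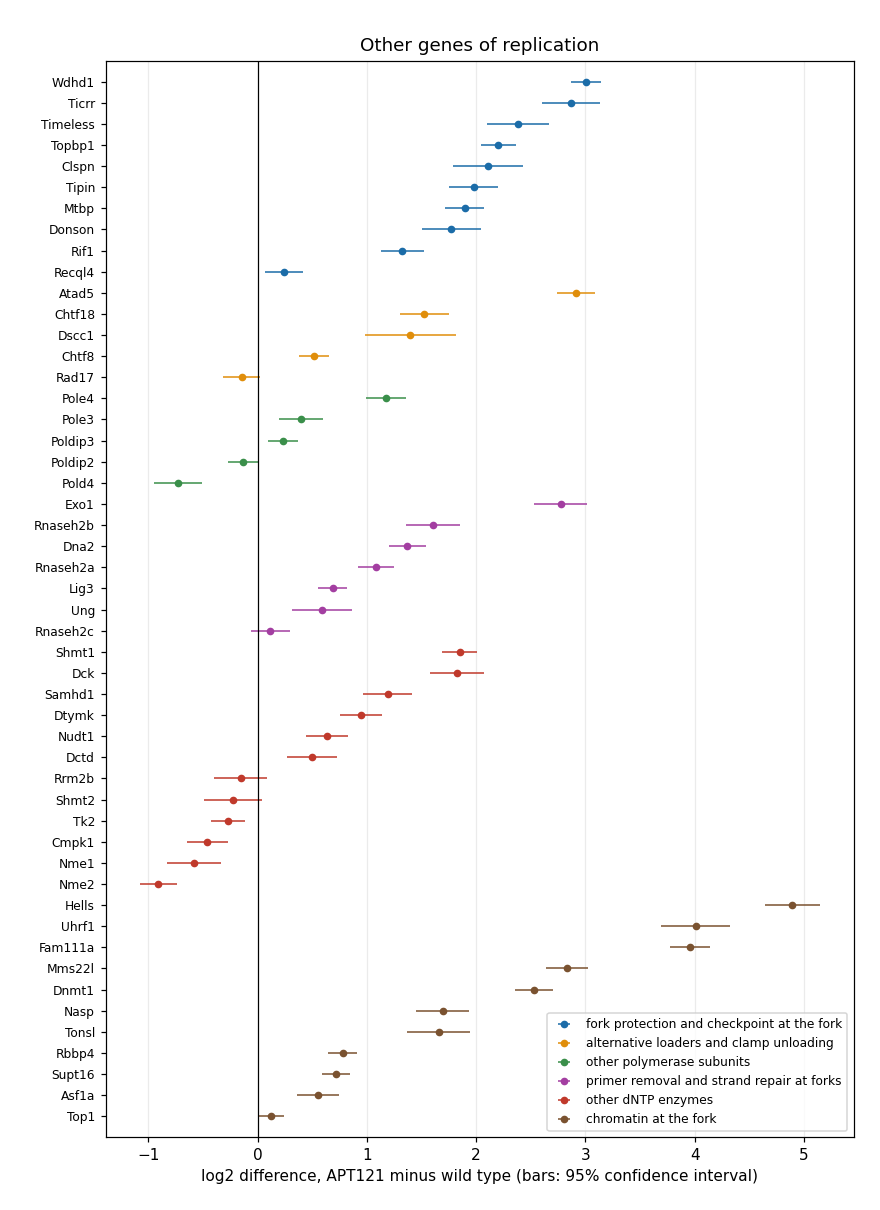
Difference between genotypes on the log2 scale (horizontal axis, APT121 minus wild type) for 50 replication genes outside the 48, with 95% confidence intervals, coloured by sublist. The intervals of Pold4, Tk2, Cmpk1, Nme1 and Nme2 lie wholly below 0 and Hells (4.89) lies furthest to the right.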

How the data were processed

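The authors' deposited values are linear intensities, 1 for each transcript cluster of each Affymetrix Mouse Gene 1.0 ST array, normalised by RMA per the submitters' processing notes. Which program ran RMA was not given in the sources used here. This method gives the arrays a common distribution, which hides a global rise or fall of transcripts. Array medians ran from 32.1 to 33.7. Arrays have no read depth, and their number limits the precision.

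Log2 was taken here. Clusters with 1 gene symbol (21780 of 28815) were kept, and for genes with several the cluster with the highest mean, which gave 19935 genes with no filter on low values. The genotype term was fitted by lmFit and eBayes (limma 3.58.1, R 4.3.3, two-sided, Benjamini-Hochberg over all genes, threshold 0.05). The fit was also run on simulated data with independent noise and few changed genes. That setting is unlike these data, where 52.8% of genes were called, so it does not show the error rate here. The design text names SAM, which was not rerun. The members, lists, ratios and motifs were chosen with earlier results of these data known. Per-array values are given for the extremes of each role, members not past the threshold, the genes of the ratios and a set of central genes. Of the other replication genes, the largest 2 rises per sublist and those that fell or did not pass are named. 10 marker lists were used. Replicate numbers of the labels were not treated as pairs. Same-numbered pools correlated in their deviations at -0.03 to 0.07, and the highest correlation with another number was 0.06 to 0.10. Values this low cannot exclude a pairing. Alternatives covered normalisation, low-value filters, eBayes options, array weights, clusters per gene, a replicate block and left-out arrays.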

Additional observations from a re-analysis of the deposited data

Results flagged for a closer look

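Among 112 groups of values examined (48 genes and 8 ratios, each in both genotypes), 6 had 1 array at an end that stood apart from the others by Dixon's criterion, and chance gives about 1 in 20. In APT121, Gmnn was at 5.33 in replicate 4 and at 5.68 in each of the others. Replicate 2 stood high for Gins4 (8.22, others 8.00 to 8.03) and for Rfc3 (7.33, others 7.02 to 7.07). In wild type, replicate 7 stood high for Rfc2 (7.31, others 6.93 to 7.10) and replicate 3 low for Rfc3 (4.64, others 4.95 to 5.18). The ratio of Orc1 over Orc2 to Orc6 was -3.81 in wild type replicate 2 and -3.42 to -3.10 in the others. The genotypes stayed apart for each of these genes and for the ratio.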

How the results depend on the processing

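Members that rose numbered 44 to 46, and 0 fell, in every alternative but a fold minimum and the stricter filter on low values. A 1.5-fold minimum left 42, and leaving out the lower-expressed 50% of genes left 38, since 8 members were filtered. For single genes, 44 of 48 members kept direction and side of the threshold in every alternative that kept them. The exceptions were Orc5, Rpa3, Orc2 (-0.022 after quantile normalisation) and Orc4 (-0.081), and among other replication genes Rnaseh2c changed sign (-0.044). The cause was not tested. Of the other genes named, the calls of Recql4, Rad17, Pole3, Poldip2, Rrm2b, Shmt2 and Top1 also depended on a setting. Over all genes 10527 were called, 3552 with the 1.5-fold minimum, and 8979 to 10493 with 1 array left out. The members' median difference ran from 1.73 to 1.88 with 1 array left out. Rrm2 over Rrm1 was -0.21 against wild type replicates 1 to 4 and -0.28 without 5, 6 and 7 (adjusted exact p = 0.200 and 0.111), and -0.47 to -0.34 with 1 array left out. The other 7 ratios passed in every alternative run, which for ratios were choices of clusters and left-out arrays. Groups that do not overlap stay apart when arrays are left out, so leaving out arrays could not change these calls. Ratios were not run under other normalisations or low-value filters. The second cluster of Pcna, Rpa3, Slbp and Tk1 was chosen as an alternative after seeing the data.

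With the replicate number as a block, 8814 genes were called and 44 members rose (median difference 1.89), and Orc5 lost its call (adjusted p = 0.0823). Only wild type replicates 1 to 4 carry the comparison in that fit. Arrays have no read depth, and their number limits what small differences such as those of Orc2 and Orc4 can show.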

Other observations

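Some members share their promoter region with a gene that is read in the opposite direction. RefSeq lists 10 measured genes outside the 48 whose start lies within 1000 bases of a member's start on the opposite strand. Of these neighbours 5 rose, 2 fell and 3 did not pass (adjusted p of 0.05, limma), where 22.8% of all genes rose and 30.0% fell. The pairs were looked up after the members' values were seen. Ints7, a subunit of the Integrator complex whose start is 92 bases from that of Dtl, rose by 1.61 ± 0.07, from 7.21 ± 0.12 (SD, n = 8) to 8.82 ± 0.04 (SD, n = 4), beside 3.74 for Dtl. Afmid, next to Tk1, rose by 0.92 ± 0.11, Prpf38a, a splicing factor next to Orc1, by 0.50 ± 0.06, Smyd4 next to Rpa1 by 0.47 ± 0.10 and Zswim9 next to Lig1 by 0.32 ± 0.08. Ufd1, a partner of the p97 segregase whose start is 322 bases from that of Cdc45, differed by -0.44 ± 0.07 (adjusted p = 7.78e-05), lower in every APT121 pool, while Cdc45 rose. Tmem258 next to Fen1 differed by -0.33 ± 0.11 (adjusted p = 0.0181) with overlapping groups. Rars2 next to Orc3 (0.05 ± 0.06), Slc25a40 next to Dbf4 (0.01 ± 0.07) and Gm10644 next to Asf1b (-0.11 ± 0.08) did not pass. In each of the 10 pairs the member had the larger difference.

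Over the whole table of promoters, 543 measured genes hold an E2F word, of which 253 (46.6%) were higher in APT121, with a median difference of 0.14. Of the 15069 measured genes in the table without one, 22.6% were higher, with a median of -0.10. These shares describe the tables and were not tested, and the base composition of the promoters was not compared.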
